A study of Mus musculus with 24 samples.

Results

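The transcripts of 10 CC chemokine genes, Ccl2, Ccl3, Ccl4, Ccl5, Ccl7, Ccl8, Ccl11, Ccl20, Ccl25 and Ccl28, were followed in 24 RNA sequencing libraries of mouse colon. The genes were chosen by name, as 10 of the 43280 symbols in each library's count file, and their counts were expressed per 1000000 counts of their library (CPM). Of the 10 genes, 9 passed the filter on low counts and were tested, and Ccl3 did not. Ccl4 passed through the T cell recipients alone, since it had no count in any Normal library, so it had to differ from Normal. Ccl2, Ccl5 and Ccl7, with 41, 11 and 32 counts over the Normal group, also passed because of the T cell recipients. Their tests against Normal are therefore not independent of the filter.

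The mice were C.B-17/Icr-scid/scid (SCID) animals, bought at 7 weeks of age, whose mutation leaves them without mature T and B cells. In 5 of the 6 groups the animals had received CD4+ T cells from spleens of female BALB/c mice that had been activated with concanavalin A and human interleukin-2 for 3 days, a transfer that leads to colitis, and distal colon was taken at day 28. Vehicle mice received 0.5% methylcellulose. In the MEKi 0.3 and MEKi 1 groups the mice received enteric microparticles with an inhibitor of MEK, the kinase that activates ERK, at 0.3 and 1 mg/kg by mouth each day from day 17 to day 27. The Anti-TNF and Isotype groups were injected into the abdomen every 4 days from day 17 with 0.1 mg per mouse of an antibody to tumour necrosis factor alpha or of its isotype control. The Normal group was SCID mice labelled as having no treatment. Empty microparticles were given to none of the groups, so the drug and its carrier cannot be told apart. Each group had 4 libraries, and the labels do not say whether these came from separate animals, so each p-value measures the spread between these libraries.

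CC chemokines are small secreted proteins that draw leukocytes by binding G protein-coupled receptors of the Ccr family. Inflamed tissue makes ligands such as Ccl2 and Ccl5 that attract monocytes and T cells, while epithelia make others at rest: Ccl25 is known from the small intestine, and Ccl28 from the colon and other mucosal surfaces. Atypical receptors of the Ackr family bind chemokines without the usual signal and remove them.

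Most of these ligands lie together in the genome. In GENCODE M21 on mm10, Ccl2, Ccl7, Ccl11 and Ccl8 lie within 81.2 kb of chromosome 11 at chr11:82035571-82116799. Ccl5, Ccl3 and Ccl4 lie within 138.9 kb of the same chromosome at chr11:83525778-83664683. Ccl20 lies alone at chr1:83116766-83119167, Ccl25 at chr8:4325210-4360020 and Ccl28 at chr13:119623819-119654359. Promoter windows were matched for 5 of the 10 genes (Ccl3, Ccl8, Ccl20, Ccl25 and Ccl28). Shown here are the 250 bases before the annotated starts of Ccl8, Ccl28 and Ccl20. Ccl8 had the highest level per kb in Vehicle. The values of Ccl28 ran against those of inflammatory ligands such as Ccl2 and Ccl5 in the T cell recipients. Ccl20 did not pass the test in any comparison. The sequences are from RefSeq on GRCm38.p6, plus strand, at chr11:82114935-82115184, chr13:119623569-119623818 and chr1:83116516-83116765. Capitals mark a match to the NF-kB motif, searched on both strands.
Ccl8: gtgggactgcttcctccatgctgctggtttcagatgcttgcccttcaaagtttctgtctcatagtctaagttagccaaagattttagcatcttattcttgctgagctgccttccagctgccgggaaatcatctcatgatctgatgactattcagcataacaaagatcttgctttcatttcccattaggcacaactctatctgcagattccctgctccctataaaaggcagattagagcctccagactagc
Ccl28: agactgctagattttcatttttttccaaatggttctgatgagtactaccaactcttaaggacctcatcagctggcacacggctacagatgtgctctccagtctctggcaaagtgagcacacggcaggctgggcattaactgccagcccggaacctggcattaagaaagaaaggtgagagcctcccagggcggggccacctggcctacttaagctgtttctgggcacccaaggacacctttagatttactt
Ccl20: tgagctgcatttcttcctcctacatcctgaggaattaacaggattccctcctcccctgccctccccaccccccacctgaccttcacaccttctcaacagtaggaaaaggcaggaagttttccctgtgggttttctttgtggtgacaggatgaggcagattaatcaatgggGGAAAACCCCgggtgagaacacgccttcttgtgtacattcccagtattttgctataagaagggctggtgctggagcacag
Of the 6 windows of these 5 genes, the one of Ccl20 held the NF-kB motif, at position -80 from the start, as GGAAAACCCC on the plus strand. The motif occurred in 464 of 32851 promoter windows of the same length (1.41%). Neither the AP-1 motif TGANTCA, present in 6.75% of all windows, nor the interferon response motif, present in 2.98%, was found in the 6 windows. A match is a description of these letters and not of binding.

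Library totals ran from 3052940 to 10587555 counts. Those of Isotype (6139216 to 10587555) and Anti-TNF (6974099 to 8545019) lay above those of all other groups, which reached 5840995 at most. A second table of the whole series repeats the 24 columns, but 16 of its names place a column in another group than the sample's own file does. Summed counts of 6 T cell genes were 356 to 589 in Vehicle and 13 to 19 in Normal by the samples' own files, against 17 to 395 in Vehicle and 13 to 363 in Normal by the table's names. Groups here follow each sample's own file. Under the other naming, none of the 9 genes tested passed the threshold in any comparison with edgeR. The 8 libraries on which both sources agree include replicates 1 and 2 of Isotype and Normal and no Vehicle. In those libraries Ccl2, Ccl5 and Ccl8 rose in Isotype, while Ccl4 (7.13, adjusted p = 0.0973) and Ccl7 (1.91, adjusted p = 0.173) did not pass, as log2 fold changes. Markers of colon epithelium summed to between 8890 and 13600 CPM in the 24 libraries and those of small intestine enterocytes to no more than 42.3 CPM. Pancreas transcripts summed to 4450 CPM in Vehicle replicate 4 and 3450 CPM in Isotype replicate 1, and to no more than 441 CPM elsewhere. Short transcripts were also favoured unevenly: the log2 difference between the longest and the shortest of 5 length classes of genes averaged -0.40 ± 0.12 in Vehicle and 0.19 ± 0.08 in Normal (SD, n = 4 each). It averaged -0.12 ± 0.12 in MEKi 0.3, -0.07 ± 0.23 in MEKi 1, 0.16 ± 0.09 in Isotype and 0.23 ± 0.25 in Anti-TNF. The 10 chemokine transcripts are 511 to 3740 bases long, against a median of 2891 bases over the genes tested.

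Levels were first compared between genes within a group, per kb of the longest coding transcript, as the mean CPM per kb of 4 libraries. In Vehicle colon the ligands of inflammation led. Ccl8, in the mouse a ligand of Ccr8, stood at 178 ± 40.05 CPM per kb, and Ccl5, a ligand of Ccr1, at 94.2 ± 28.7 (SD, n = 4). Their libraries did not overlap with each other or with those of the next gene. Ccl11 (40.1), Ccl2 (37.2) and Ccl28 (17.7) followed, each overlapping with its neighbour, and Ccl7, at 14.0, overlapped with Ccl28 and not with Ccl4, at 6.72. In Normal colon the epithelial Ccl28 stood at 31.8 ± 5.42 CPM per kb and Ccl11 at 22.8 ± 1.37, and both were clear of the next gene. Ccl8 came next in Normal colon at 7.15 ± 2.74 CPM per kb, and its libraries overlapped with those of Ccl20 at 4.81. Ccl20, Ccl25, Ccl2, Ccl7 and Ccl5 lay between 4.81 and 1.18 CPM per kb in Normal colon, each overlapping with the next. Ccl3 and Ccl4 were not detected there. In both MEKi groups and in Anti-TNF, Ccl8 was first in the order, at 103.5 in MEKi 0.3, 92.7 in MEKi 1 and 109 CPM per kb in Anti-TNF. Ccl28 was second in MEKi 1 at 45.2 and in Anti-TNF at 38.0, and followed Ccl5 in MEKi 0.3 at 39.8 CPM per kb, each overlapping with Ccl5 beside it. Summed over the 10 genes, the level was 398 ± 70.0 in Vehicle, 252 ± 63.4 in MEKi 0.3, 222 ± 63.9 in MEKi 1, 218 ± 69.4 in Anti-TNF, 265 ± 94.0 in Isotype and 76.4 ± 12.6 CPM per kb in Normal (SD, n = 4 each).

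**Figure D1:**
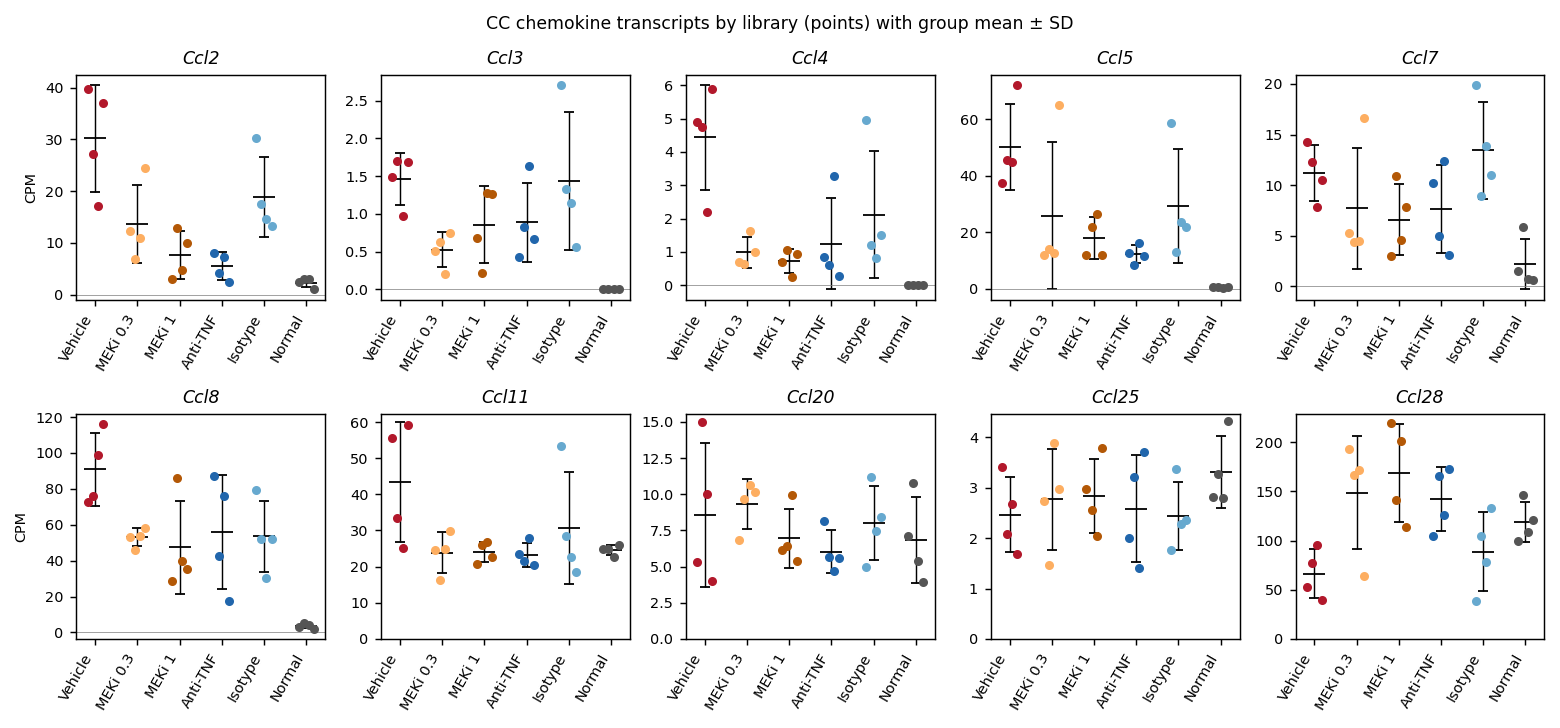
CPM (y axis, linear) of the 10 CC chemokine transcripts in every library (points), with the mean and SD of each group of 4 libraries as black bars. Ccl2, Ccl5 and Ccl8 are high in Vehicle and Isotype and low in Normal, while Ccl2 in MEKi 1 and Anti-TNF overlaps with Normal. Ccl3 and Ccl4 are at 0 in every Normal library, and Ccl28 is lower in the 4 Vehicle libraries than in the 4 Normal ones.

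The first comparison asked what differed after T cell transfer without an active drug, in Vehicle against Normal and in Isotype against Normal, which share the Normal libraries. Normal mice received neither methylcellulose nor antibody, and no collection day is given for them. Transfer therefore cannot be told apart from these differences. Ccl2, Ccl4, Ccl5, Ccl7 and Ccl8 rose in both comparisons, and Ccl11 rose in Vehicle. Thus 6 of the 9 genes tested rose in Vehicle and 0 fell, where 23.1% of all genes tested rose and 23.3% fell. In Isotype 5 rose and 0 fell, against a background of 20.9% that rose and 20.3% that fell. Both counts include Ccl4, which had to differ from Normal. They also include Ccl2, Ccl5 and Ccl7, which the filter kept because of the T cell recipients, so the counts are a description only. The median log2 fold change of the 9 was 2.49 in Vehicle against Normal and 2.74 in Isotype against Normal, where all genes tested had medians of 0.00 and 0.01. Both medians were unchanged with Ccl4 at its lower bound. As each library is whole tissue, more producing cells and more RNA per cell cannot be told apart.

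Among the Ccr2 ligands, Ccl2, the main attractant of monocytes, had 39.7, 27.1, 17.1 and 37.1 CPM in Vehicle and 30.2, 17.6, 14.7 and 13.3 CPM in Isotype, against 2.38, 2.95, 2.99 and 1.03 CPM in Normal. Every Vehicle and Isotype library lay above every Normal library. Its log2 fold change was 3.66 ± 0.50 (SE) in Vehicle (adjusted p = 9.64e-06) and 2.98 ± 0.50 in Isotype (adjusted p = 9.84e-05). Ccl7, which also binds Ccr2, had 14.3, 12.3, 7.80 and 10.5 CPM in Vehicle and 19.9, 8.92, 13.8 and 11.1 CPM in Isotype, against 1.51, 5.90, 0.747 and 0.617 CPM in Normal. The groups did not overlap, with Normal replicate 2 the highest of its group. Ccl7 rose by 2.49 ± 0.62 in Vehicle (adjusted p = 0.00282) and by 2.74 ± 0.61 in Isotype (adjusted p = 0.00144) on the log2 scale.

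Ccl8 had 72.5, 76.1, 99.0 and 116 CPM in Vehicle and 79.1, 52.2, 30.5 and 52.0 CPM in Isotype, against 3.03, 5.24, 4.29 and 2.06 CPM in Normal. The lowest T cell recipient of these 2 groups, Isotype replicate 3, was above the highest Normal library. The log2 fold change of Ccl8 was 4.63 ± 0.48 in Vehicle (adjusted p = 4.63e-07) and 3.84 ± 0.47 in Isotype (adjusted p = 4.85e-06).

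Ccl5, Ccl4 and Ccl3 were near or at 0 in Normal colon. Ccl5, which attracts T cells among others and is made by activated T cells, had 37.3, 45.7, 45.1 and 72.2 CPM in Vehicle and 58.8, 13.1, 23.8 and 22.0 CPM in Isotype, against 0.649, 0.655, 0.373 and 0.823 CPM in Normal, where it had 11 counts in all. Its lowest library among these T cell recipients, Isotype replicate 2, was far above the Normal libraries. It rose by 6.25 ± 0.73 in Vehicle (adjusted p = 2.44e-06) and by 5.47 ± 0.74 in Isotype (adjusted p = 1.6e-05) on the log2 scale. Ccl4, also called macrophage inflammatory protein 1 beta, had 4.91, 4.74, 2.19 and 5.90 CPM in Vehicle and 4.95, 1.21, 0.814 and 1.51 CPM in Isotype, and was at 0 in all 4 Normal libraries. Against a floor of 3 counts over the Normal group, Ccl4 was at least 26.9-fold higher in Vehicle (adjusted p = 7.64e-05) and at least 13.0-fold higher in Isotype (adjusted p = 0.000722). Its close relative Ccl3 had 0.975 to 1.71 CPM in Vehicle and 0.567 to 2.71 CPM in Isotype, which are 28 and 47 counts in all, and 0 counts in Normal. Against the same floor Ccl3 was at least 8.88-fold higher in Vehicle and at least 8.37-fold higher in Isotype. Without the filter on low counts, a further setting, edgeR gave Ccl3 an adjusted p of 0.000131 in Vehicle against Normal and 0.000121 in Isotype against Normal. With 0 counts in Normal, Ccl3 could only rise, so these values are a description only.

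Ccl11 (eotaxin), which attracts eosinophils through Ccr3, had 55.7, 33.6, 25.1 and 59.2 CPM in Vehicle and 53.3, 28.4, 22.8 and 18.6 CPM in Isotype, against 24.9, 24.9, 22.6 and 26.1 CPM in Normal. The Normal libraries were close to each other, and 1 Vehicle library and 2 Isotype libraries did not exceed them. Ccl11 rose by 0.76 ± 0.26 in Vehicle on the log2 scale (adjusted p = 0.0176). Its difference in Isotype was 0.26 ± 0.25 (adjusted p = 0.43). The Vehicle call was lost without Vehicle replicate 1 (0.64, adjusted p = 0.0632) or replicate 4 (0.60, adjusted p = 0.0737). It was also lost with an offset for transcript length, chosen after seeing the data (0.50, adjusted p = 0.105). Epx, a defining eosinophil gene, was at 0 in every library, and the 3 eosinophil markers summed to 0.731 to 2.95 CPM in Vehicle, 0.589 to 2.17 CPM in Isotype and 0.216 to 1.23 CPM in Normal. The 5 fibroblast markers summed to 2090, 1150, 1040 and 1980 CPM in Vehicle and 2740, 1160, 1170 and 988 CPM in Isotype, against 957 to 1450 CPM in Normal. The libraries highest in these markers, Vehicle replicates 1 and 4 and Isotype replicate 1, were also the highest in Ccl11, and Vehicle replicate 4 and Isotype replicate 1 are those with the most pancreas transcripts. The part of either in the Ccl11 values was not tested.

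The 3 ligands made largely by epithelium did not pass the test. Ccl28, the ligand of Ccr10, had 52.9, 77.4, 95.1 and 40.02 CPM in Vehicle and 38.4, 105, 77.9 and 133 CPM in Isotype, against 99.6, 146, 109 and 120.5 CPM in Normal. All 4 Vehicle libraries lay below all Normal libraries, while Isotype overlapped with Normal. The log2 fold change of Ccl28 was -0.88 ± 0.36 in Vehicle (adjusted p = 0.053) and -0.46 ± 0.36 in Isotype (adjusted p = 0.31). Other settings put the Vehicle difference past the threshold: DESeq2 gave -0.88 (adjusted p = 0.0237), a filter at a mean of 5 CPM gave -0.90 (adjusted p = 0.0435), a fit of Vehicle and Normal alone gave -0.89 (adjusted p = 0.00988), and edgeR without Vehicle replicate 3 gave -1.11 (adjusted p = 0.0284). Ccl20, the ligand of Ccr6, had 4.00 to 15.0 CPM in Vehicle and 4.95 to 11.2 CPM in Isotype, against 3.91 to 10.8 CPM in Normal, and its log2 fold changes were 0.34 ± 0.36 and 0.23 ± 0.35 (adjusted p = 0.46 and 0.63). Ccl25, the ligand of Ccr9, had 1.69 to 3.41 CPM in Vehicle and 1.77 to 3.38 CPM in Isotype, against 2.80 to 4.32 CPM in Normal. Its log2 fold changes were -0.47 ± 0.36 and -0.48 ± 0.35 (adjusted p = 0.30 and 0.28).

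Leukocyte markers were higher as well. In Vehicle against Normal, 5 of 5 measured monocyte and macrophage and 5 of 5 neutrophil markers rose, beside the 23.1% of all genes that rose. The neutrophil marker Cxcr2 was at 0 in Normal, so it could only rise. All 5 neutrophil markers, with 78 counts together over the Normal group, passed the filter because of the T cell recipients. Their count is therefore a description only. The 6 of 6 T cell markers rose too, which the design fixed, since Normal mice were given no T cells. T cell markers summed to 86.8 to 123 CPM in Vehicle, 62.5 to 89.4 CPM in Isotype and 3.36 to 4.26 CPM in Normal, where Cd3d, Cd3e and Cd5 were at 0. The monocyte and macrophage markers summed to 2410 to 4030 CPM in Vehicle, 1630 to 1990 CPM in Isotype and 508 to 586 CPM in Normal. Neutrophil markers summed to 431 to 1090 CPM in Vehicle, 300.0 to 998 CPM in Isotype and 1.31 to 5.6 CPM in Normal. Of 4 mast cell markers 3 rose and 1 fell in Vehicle, and they summed to 167 to 336 CPM in Vehicle, 66.8 to 148 CPM in Isotype and 52.4 to 59.3 CPM in Normal. All 4 smooth muscle markers fell in Vehicle, beside the 23.3% of all genes that fell, with a median log2 fold change of -1.58. Of 6 epithelial markers, 2 rose and 1 fell in Vehicle. The part of cell content in the chemokine levels was not tested.

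**Figure D2:**
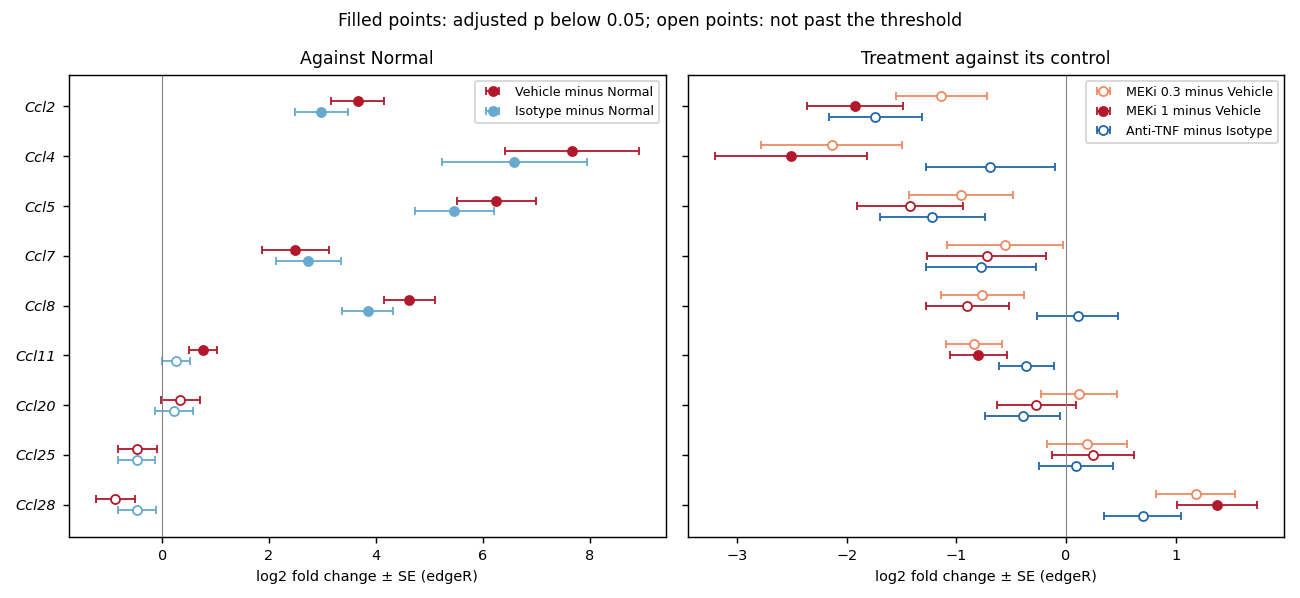
Log2 fold changes with their SE (x axis, edgeR) of the 9 CC chemokine genes tested, for Vehicle and Isotype against Normal (left) and for each treatment against its control (right). Filled points passed the adjusted p threshold of 0.05: 6 genes in Vehicle and 5 in Isotype against Normal, and Ccl2, Ccl4, Ccl11 and Ccl28 in MEKi 1 against Vehicle. The fitted values of Ccl4 against Normal depend on the prior count, since Normal had no count.

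The second question was what the MEK inhibitor changed in colitic colon. At 1 mg/kg, Ccl2, Ccl4 and Ccl11 fell and Ccl28 rose against Vehicle. These are 3 of 9 genes lower, against a background of 4.51% of all genes, and 1 of 9 higher, against a background of 6.08%. Ccl4 is among the 3 lower genes, and the filter on low counts kept it through its Vehicle level. The median log2 fold change of the 9 was -0.80, and that of all genes tested was 0.00. At 0.3 mg/kg, 0 of 9 passed with edgeR, against a background of 0.00677%, and 4 had an unadjusted p below 0.05. DESeq2 passed 0 of the 8 to which it gave an adjusted p, all but Ccl4, against a background of 0.691%. Between MEKi 1 and MEKi 0.3, 0 of 9 passed with edgeR, against a background of 0%, and 0 had an unadjusted p below 0.05. DESeq2 also passed 0 of 9, against a background of 0.0136%, so the doses are not shown to differ.

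Ccl2 had 39.7, 27.1, 17.1 and 37.1 CPM in Vehicle, then 12.3, 6.92, 10.9 and 24.5 CPM in MEKi 0.3 and 2.96, 12.8, 4.85 and 10.1 CPM in MEKi 1. All 4 MEKi 1 libraries and 3 of 4 MEKi 0.3 libraries lay below the lowest Vehicle library. Ccl2 fell by 1.93 ± 0.44 in MEKi 1 on the log2 scale (adjusted p = 0.0149), and its log2 fold change in MEKi 0.3 was -1.14 ± 0.41 (adjusted p = 0.19). Ccl4 had 4.91, 4.74, 2.19 and 5.90 CPM in Vehicle, then 0.685, 0.629, 1.64 and 0.992 CPM in MEKi 0.3 and 0.684, 1.07, 0.255 and 0.945 CPM in MEKi 1. All libraries of both doses lay below all Vehicle libraries, on 19 counts in MEKi 0.3 and 12 in MEKi 1, against 85 in Vehicle. Ccl4 fell by 2.51 ± 0.69 in MEKi 1 (adjusted p = 0.0295), and its log2 fold change in MEKi 0.3 was -2.14 ± 0.64 (adjusted p = 0.19).

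Ccl11 had 55.7, 33.6, 25.1 and 59.2 CPM in Vehicle, then 24.5, 16.4, 25.0 and 29.7 CPM in MEKi 0.3 and 20.8, 25.9, 26.8 and 22.7 CPM in MEKi 1. Both doses overlapped with Vehicle through its replicate 3 alone and lay below Vehicle replicates 1, 2 and 4. The log2 fold change of Ccl11 was -0.80 ± 0.26 in MEKi 1 (adjusted p = 0.0473) and -0.84 ± 0.26 in MEKi 0.3 (adjusted p = 0.19). Ccl28 had 52.9, 77.4, 95.1 and 40.02 CPM in Vehicle, then 193, 167, 171 and 63.7 CPM in MEKi 0.3 and 219.7, 141, 201 and 114 CPM in MEKi 1. Every MEKi 1 library was above every Vehicle library, and MEKi 0.3 replicate 4 was the only treated library within the Vehicle range. Ccl28 rose by 1.38 ± 0.36 in MEKi 1 on the log2 scale (adjusted p = 0.0266), and its log2 fold change in MEKi 0.3 was 1.18 ± 0.36 (adjusted p = 0.19).

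The other ligands did not pass the test in MEKi 1. Ccl5 had 11.9, 22.0, 26.5 and 11.97 CPM in MEKi 1, against 37.3, 45.7, 45.1 and 72.2 CPM in Vehicle. The groups did not overlap, and the log2 fold change was -1.42 ± 0.49 (adjusted p = 0.0606). DESeq2 (-1.44, adjusted p = 0.0203) and a fit of these groups alone (-1.42, adjusted p = 0.00868) placed Ccl5 past the threshold. Ccl8 had 28.7, 85.9, 39.5 and 35.3 CPM in MEKi 1, against 72.5 to 116 CPM in Vehicle, with MEKi 1 replicate 2 inside the Vehicle range. Its log2 fold change was -0.90 ± 0.38 (adjusted p = 0.115). Ccl7 had 2.96 to 10.9 CPM in MEKi 1, against 7.80 to 14.3 CPM in Vehicle, a log2 fold change of -0.73 ± 0.54 (adjusted p = 0.37). Ccl3, which was not tested, had 0.214 to 1.28 CPM in MEKi 1 and 0.975 to 1.71 CPM in Vehicle. Ccl20 (-0.27 ± 0.36) and Ccl25 (0.24 ± 0.37) had log2 fold changes within 1 SE of 0, and their libraries overlapped throughout.

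The MEKi 1 calls rested on few libraries. None of the 9 genes passed without Vehicle replicate 4, MEKi 1 replicate 1 or MEKi 1 replicate 3. Ccl2 alone passed without Vehicle replicate 1, and Ccl2 and Ccl28 without Vehicle replicate 2. Over the 8 fits that left out 1 library, Ccl2 passed in 5 (adjusted p 0.00759 to 0.0644), Ccl4 in 3 (0.0274 to 0.0991), Ccl28 in 4 (0.0200 to 0.100) and Ccl11 in 1 (0.0228 to 0.161). The log2 fold changes kept their sign in all 8 fits, with Ccl2 between -2.29 and -1.65 and Ccl28 between 1.19 and 1.61. Ccl11 also missed the threshold with an offset for transcript length (-0.67, adjusted p = 0.0831).

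**Figure D3:**
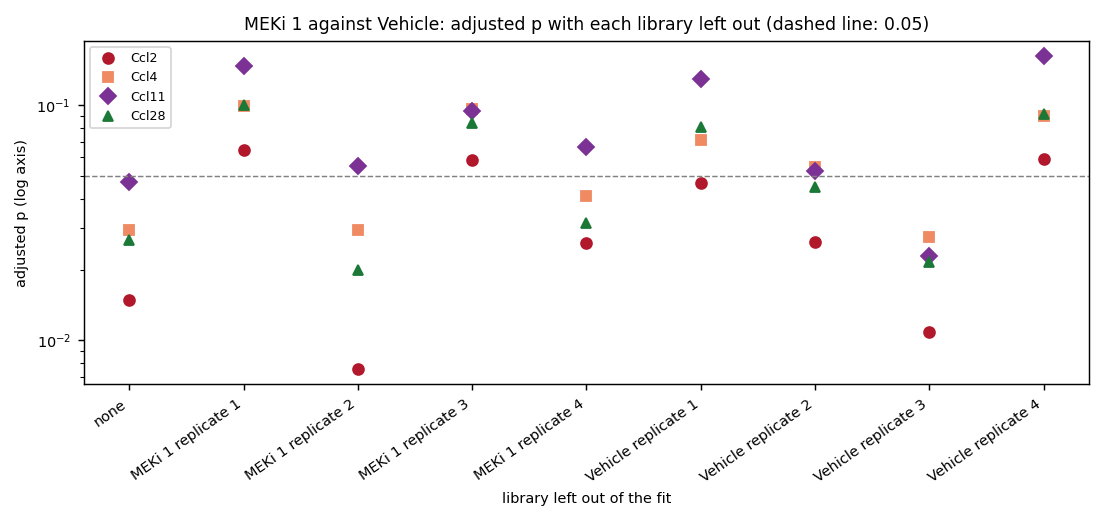
Adjusted p (y axis, log scale) of the 4 CC chemokine genes called in MEKi 1 against Vehicle, with all libraries and with each of the 8 libraries left out in turn (x axis). The dashed line is the threshold of 0.05, and all 4 genes lie above it without MEKi 1 replicate 1, MEKi 1 replicate 3 or Vehicle replicate 4.

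At 0.3 mg/kg 1 library stood apart. MEKi 0.3 replicate 4 had 65.2 CPM of Ccl5 and 16.6 CPM of Ccl7, against 11.98 to 14.0 CPM and 4.40 to 5.31 CPM in the other 3 libraries of its group. Its Ccl2, 24.5 CPM, was the highest and its Ccl28, 63.7 CPM, the lowest of the group, while its Ccl8, 58.2 CPM, was near the 46.1 to 53.9 CPM of the others. Its neutrophil markers summed to 626 CPM, against 56.6 to 168 CPM in the other 3. Its T cell markers summed to 97.9 CPM, against 59.9 to 76.1 CPM. Without that library, a leave-out made for every library, 4 of the 9 genes passed in MEKi 0.3 against Vehicle, against a background of 7.52% of 15025 genes. These were Ccl2 (-1.55, adjusted p = 0.0381), Ccl5 (-1.92, adjusted p = 0.0261), Ccl11 (-0.94, adjusted p = 0.0439) and Ccl28 (1.44, adjusted p = 0.0277), as log2 fold changes.

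Same-numbered libraries of MEKi 0.3 and Vehicle deviated together, so a fit of these groups with the replicate number as a block was also made, chosen after seeing the data. It placed 3 genes lower, against a background of 1.31%, and 1 higher, against a background of 1.66% of 13635 genes. The lower ones were Ccl2 (-1.18, adjusted p = 0.0402), Ccl4 (-2.10, adjusted p = 0.0437) and Ccl8 (-0.74, adjusted p = 0.0254). Ccl4 was again kept by the filter through its Vehicle level. The higher one was Ccl28 (1.15, adjusted p = 0.0254). Ccl8 had 53.4, 46.1, 53.9 and 58.2 CPM in MEKi 0.3, against 72.5, 76.1, 99.0 and 116 CPM in Vehicle, without overlap.

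In MEKi 1 against Vehicle, 4 of 6 T cell, 3 of 5 monocyte and macrophage and 5 of 5 neutrophil markers fell, beside 4.51% of all genes. Of 4 markers of M cell and follicle epithelium 2 fell, and of 5 fibroblast markers 1 fell. None of the 6 epithelial or 4 mast cell markers passed. Neutrophil markers summed to 431 to 1090 CPM in Vehicle, 56.6 to 626 CPM in MEKi 0.3 and 18 to 149 CPM in MEKi 1. Monocyte and macrophage markers summed to 2410 to 4030 CPM in Vehicle, 1760 to 3040 CPM in MEKi 0.3 and 643 to 2040 CPM in MEKi 1. Markers of epithelium, which makes Ccl28, summed to 9130 to 12600 CPM in Vehicle, 9740 to 13000 CPM in MEKi 0.3 and 11300 to 13600 CPM in MEKi 1. Their part in the chemokine differences was not tested.

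The third question was what neutralising TNF changed against the isotype antibody. With edgeR, 0 of 9 genes passed, against a background of 0.0203%. At an unadjusted p below 0.05 there were 2, and DESeq2 placed 1, Ccl2, past the threshold, against a background of 0.576%. Ccl2 had 8.03, 4.27, 7.37 and 2.39 CPM in Anti-TNF, against 30.2, 17.6, 14.7 and 13.3 CPM in Isotype. The groups did not overlap, and the log2 fold change was -1.74 ± 0.42 (adjusted p = 0.16 with edgeR and 0.0195 with DESeq2). Ccl5 had 12.8, 8.54, 16.3 and 11.5 CPM in Anti-TNF, against 58.8, 13.1, 23.8 and 22.0 CPM in Isotype, a log2 fold change of -1.22 ± 0.48 (adjusted p = 0.34). Anti-TNF replicate 3 lay within the Isotype range and the other 3 just below it, and Isotype replicate 1 was far above the rest.

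Ccl8 was spread widely under the antibody, with 87.3, 42.5, 76.0 and 17.6 CPM in Anti-TNF and 79.1, 52.2, 30.5 and 52.0 CPM in Isotype. Its log2 fold change was 0.10 ± 0.37 (adjusted p = 0.95), and each group spanned most of the other. Ccl28 had 105, 166, 126 and 173 CPM in Anti-TNF, against 38.4, 105, 77.9 and 133 CPM in Isotype, with 2 Anti-TNF libraries above all Isotype libraries and a log2 fold change of 0.70 ± 0.35 (adjusted p = 0.48). The log2 fold changes of Ccl4 (-0.69 ± 0.59), Ccl7 (-0.78 ± 0.50), Ccl11 (-0.36 ± 0.25), Ccl20 (-0.40 ± 0.34) and Ccl25 (0.09 ± 0.34) did not pass either, with adjusted p between 0.58 and 0.95. T cell markers summed to 24.5 to 69.3 CPM in Anti-TNF and 62.5 to 89.4 CPM in Isotype, and monocyte and macrophage markers to 706 to 1320 CPM in Anti-TNF and 1630 to 1990 CPM in Isotype. Neutrophil markers summed to 41.3 to 449 CPM in Anti-TNF and 300.0 to 998 CPM in Isotype. The part of these cells in the chemokine values was not tested.

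The effect of MEKi 1 over Vehicle was then set against that of Anti-TNF over Isotype in the same fit. In that test of the difference 0 of 9 genes passed with edgeR, against a background of 0.0135%, and 0 had an unadjusted p below 0.05. With DESeq2 0 of 9 passed, against a background of 0.0542%. Ccl4 differed most in size, at -1.82 ± 0.93 on the log2 scale, followed by Ccl8 at -1.005 ± 0.53 (adjusted p = 0.93 each). Ccl2 (-0.18 ± 0.61) and Ccl5 (-0.20 ± 0.68) had differences under 1 SE. The controls were also compared: in Isotype against Vehicle 0 of 9 passed with edgeR, against a background of 2.99%, and 1 had an unadjusted p below 0.05. DESeq2, which gave Ccl4 no adjusted p here either, passed 0 of 8, against a background of 6.02%. Their log2 fold changes ran from -1.07 for Ccl4 to 0.41 for Ccl28. Without Isotype replicate 1, Ccl11 passed (-0.87, adjusted p = 0.0363). The Isotype libraries also differed from Vehicle in totals and length trend, and the part of either was not tested. With an offset for transcript length, 9 of all genes tested rose and 18 fell in Isotype against Vehicle, against 195 and 247 in the main fit.

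Treated colon was also set against Normal, in 3 comparisons that share the Normal libraries with each other and with those above. In MEKi 0.3, 5 of 9 genes were higher (Ccl2, Ccl4, Ccl5, Ccl7 and Ccl8), against a background of 10.8%. In MEKi 1, 4 of 9 were higher (Ccl2, Ccl4, Ccl5 and Ccl8), against a background of 8.06%. In Anti-TNF, 4 of 9 were higher (Ccl4, Ccl5, Ccl7 and Ccl8), against a background of 12.5%. Each of these counts holds Ccl4, which had to differ from Normal, and Ccl5, which the filter kept because of the T cell recipients. The counts of both MEKi groups also hold Ccl2, and those of MEKi 0.3 and Anti-TNF hold Ccl7, kept in the same way. These counts are therefore a description only. The medians of the 9 log2 fold changes were 1.93 in MEKi 0.3, 1.73 in MEKi 1 and 1.23 in Anti-TNF, and those of all genes were 0.02, 0.01 and 0.00.

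Ccl8 and Ccl5 were higher than Normal in all 3 treated groups. The log2 fold change of Ccl8 over Normal was 3.86 ± 0.48 in MEKi 0.3 (adjusted p = 6.53e-06), 3.73 ± 0.48 in MEKi 1 (adjusted p = 1.62e-05) and 3.95 ± 0.47 in Anti-TNF (adjusted p = 6.03e-06). Ccl5 stood 5.29 ± 0.75 above Normal in MEKi 0.3, 4.83 ± 0.77 in MEKi 1 and 4.25 ± 0.77 in Anti-TNF on the log2 scale (adjusted p 4.27e-05, 0.000233 and 0.000635). Both genes passed in every fit that left out 1 library. Ccl2 stood 2.52 ± 0.51 above Normal in MEKi 0.3 (adjusted p = 0.00121) and 1.73 ± 0.53 in MEKi 1 (adjusted p = 0.0341). In Anti-TNF its log2 fold change was 1.23 ± 0.52 (adjusted p = 0.0887). Ccl4 was at least 5.80-fold higher than Normal in MEKi 0.3 (adjusted p = 0.0158), at least 4.43-fold higher in MEKi 1 (adjusted p = 0.0447) and at least 7.76-fold higher in Anti-TNF (adjusted p = 0.00651), against the floor of 3 counts over the Normal group. Ccl7 had log2 fold changes of 1.93 ± 0.64 in MEKi 0.3 (adjusted p = 0.0363), 1.76 ± 0.65 in MEKi 1 (adjusted p = 0.075) and 1.96 ± 0.62 in Anti-TNF (adjusted p = 0.0278). Leaving out Normal replicate 1, 3 or 4 reduced the MEKi 1 count to 2 genes, Ccl5 and Ccl8, as did leaving out MEKi 1 replicate 2 or 4. Ccl7 passed in 4 of 8 such fits in MEKi 0.3 and in 3 of 8 in Anti-TNF, and was lost without Normal replicate 1, 3 or 4 in both. Ccl11, Ccl20, Ccl25 and Ccl28 had log2 fold changes between -0.38 and 0.50 over Normal in the 3 treated groups, and none passed.

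Across the 20 libraries of T cell recipients, Ccl28 ran against the inflammatory ligands. On log2 CPM its Pearson correlation was -0.85 with Ccl2 (Spearman -0.85), -0.82 with Ccl7 (-0.83), -0.82 with Ccl11 (-0.67), -0.81 with Ccl5 (-0.74) and -0.77 with Ccl4 (-0.75). With Ccl8 it was -0.56 (-0.61). These libraries share their treatments and totals, so the values are a description of these libraries. After each group's mean was taken out, the correlation of Ccl28 with Ccl2 was -0.80, with Ccl7 -0.77, with Ccl5 -0.72 and with Ccl8 -0.40. Without the 2 libraries farthest from the median of Ccl2, the value for Ccl2 was -0.85 over 18 libraries. Ccl20 and Ccl25 had correlations of 0.21 and 0.24 with Ccl28. Among the inflammatory ligands, Ccl2 correlated with Ccl7 at 0.80, with Ccl4 at 0.78 and with Ccl5 at 0.77.

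**Figure D4:**
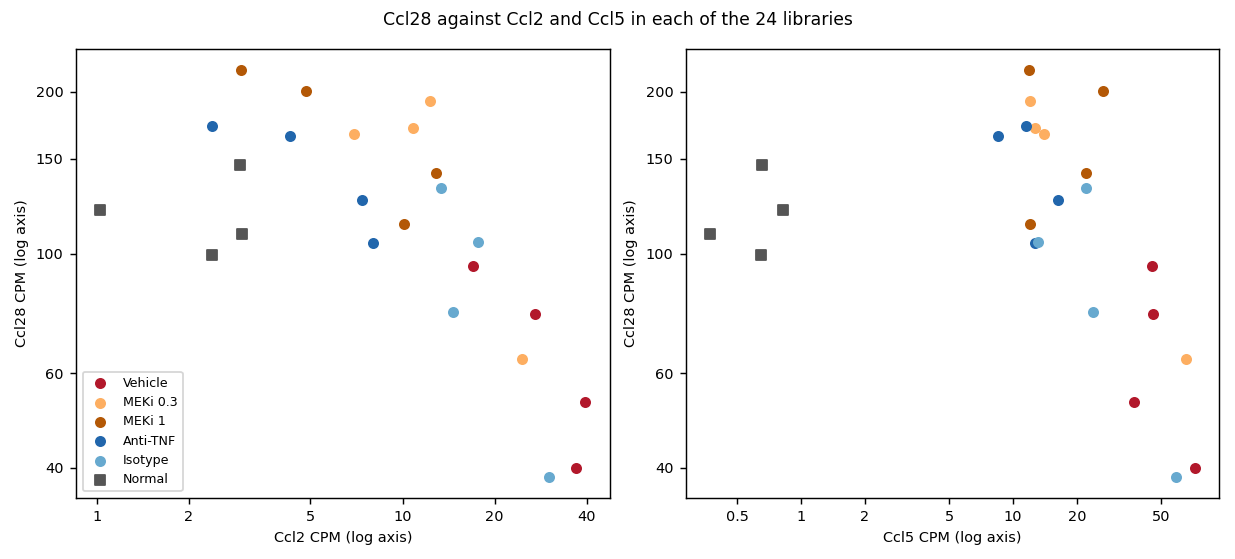
Ccl28 CPM (y axis, log scale) against Ccl2 CPM (left) and Ccl5 CPM (right, both x axes log scale) in each of the 24 libraries, coloured by group, with Normal as squares. Among the 20 libraries of T cell recipients, those high in Ccl2 or Ccl5 are low in Ccl28, with Isotype replicate 1 and Vehicle replicates 1 and 4 at the lower right. Normal is apart in Ccl5, while in Ccl2 it lies beside the lowest T cell recipients, such as Anti-TNF replicate 4.

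For each ligand the genes with the most similar log2 CPM over the same 20 libraries were listed among 11025 genes. For Ccl2 these were Irg1 (Pearson 0.956), which encodes the enzyme that makes itaconate in macrophages, Saa3 (0.949), an acute phase protein, and Cd40 (0.940), a costimulatory receptor. For Ccl28 they were Golph3l, Sema4g and Shisa2 (0.970, 0.965 and 0.964). For Ccl5 they were Fxyd5, Fcer1g and Degs1 (0.890 to 0.894). For Ccl7 they were Vars, Shmt2 and Mfsd2a (0.933 to 0.941). For Ccl8 they were Blmh, Cenpa and Ppp1ca (0.890 to 0.915). The highest values for Ccl4 (Fam64a, Sod3 and Ints9, 0.866 to 0.875) and Ccl11 (Ass1, Akr1b8 and Ttyh2, 0.854 to 0.862) were lower. Those for Ccl3 (Xylb, 0.795), Ccl25 (Zfp148, 0.688) and Ccl20 (Serpinb1a, 0.647) were lower still.

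The receptors that read these ligands were listed as 13 genes, of which 9 were tested. Ccr3, Ccr6, Ccr8 and Ccr9, the receptors of Ccl11, Ccl20, Ccl8 and Ccl25 in the mouse, had too few counts. In Vehicle against Normal 6 of the 9 rose and 1 fell, where 23.1% of all genes rose and 23.3% fell. The 6 include Ccr4 and Ccr10, with 3 and 2 counts over the Normal group, which passed the filter through the T cell recipients. For these a fall could not have been seen. Ccr2 and Ccr7, with 60 and 26 counts over the Normal group, also passed because of the T cell recipients. Their tests against Normal are not independent of the filter. In MEKi 1 against Vehicle 2 fell and 1 rose, where 4.51% of all genes fell and 6.08% rose. Ccr2, the receptor of Ccl2 and Ccl7 on monocytes, had 6.62, 11.97, 11.7 and 5.67 CPM in MEKi 1, against 21.8, 21.1, 17.1 and 35.6 CPM in Vehicle, and the groups did not overlap. Its log2 fold change was 2.75 ± 0.34 in Vehicle against Normal (adjusted p = 1.42e-06) and -1.35 ± 0.30 in MEKi 1 against Vehicle (adjusted p = 0.0142). Ccr1, a receptor of Ccl3 and Ccl5, had 5.70, 13.0, 9.95 and 2.20 CPM in MEKi 1, against 26.2, 18.2, 11.5 and 33.7 CPM in Vehicle. Vehicle replicate 3 alone lay below the highest MEKi 1 library. Ccr1 rose by 2.42 ± 0.36 in Vehicle over Normal (adjusted p = 1.56e-05) and fell by 1.47 ± 0.33 in MEKi 1 under Vehicle (adjusted p = 0.0142). Ccr7, the lymph node homing receptor, and Ccrl2, a non-signalling receptor, rose by 3.26 ± 0.48 and 1.71 ± 0.30 in Vehicle (adjusted p = 1.82e-05 and 0.000112).

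Ackr4, which scavenges Ccl25 among other ligands, was the receptor that fell in Vehicle. It had 0.853, 1.52, 0.244 and 1.48 CPM in Vehicle and 1.42, 0.482, 1.14 and 1.42 CPM in Isotype, against 4.98, 9.83, 7.84 and 6.17 CPM in Normal. Neither group overlapped with Normal, and Ackr4 fell by 2.79 ± 0.47 in Vehicle (adjusted p = 6.99e-05) and by 2.70 ± 0.44 in Isotype (adjusted p = 5.29e-05). In MEKi 1 it had 5.02, 2.14, 4.59 and 2.52 CPM, all above the Vehicle libraries, and rose by 1.79 ± 0.49 on the log2 scale against Vehicle (adjusted p = 0.0273). Without Vehicle replicate 4 or MEKi 1 replicate 1, Ccr1, Ccr2 and Ackr4 all missed the threshold in MEKi 1 against Vehicle (adjusted p 0.0639 to 0.107). Ackr4 also missed it without Vehicle replicate 1, Vehicle replicate 3 or MEKi 1 replicate 3. Ccr4, the receptor of Ccl22, and Ccr10, the receptor of Ccl28, complete the 6 that rose in Vehicle (adjusted p = 0.00398 and 0.047). Ccr4 had 1.92, 2.47, 0.731 and 1.26 CPM in Vehicle, and Ccr10 had 4.48, 0.948, 0 and 0.843 CPM. As Normal held 3 counts of Ccr4 and 2 of Ccr10 in all, no fold is given. Ccr4 passed in all 8 fits that left out 1 library. Ccr10 passed in 3 of 8 (adjusted p 0.0251 to 0.264) and was lost without Vehicle replicate 1 or any 1 of the Normal libraries.

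Of 10 further CC ligands, 7 were tested. In Vehicle against Normal 3 rose and 1 fell, beside 23.1% and 23.3% of all genes. Ccl9, in the mouse a ligand of Ccr1 (1.46 ± 0.27, adjusted p = 0.000173), Ccl12, a mouse ligand of Ccr2 (1.53 ± 0.53, adjusted p = 0.0208), and Ccl22, a ligand of Ccr4 (2.09 ± 0.48, adjusted p = 0.00127), rose, and Ccl6, in the mouse a ligand of Ccr1, fell (-1.03 ± 0.28, adjusted p = 0.00487), on the log2 scale. Ccl12 did not pass without Normal replicate 3 or 4, or without Vehicle replicate 3 or 4 (adjusted p 0.05 to 0.0732). Ccl12 and Ccl22, with 26 and 60 counts over the Normal group, passed the filter because of the T cell recipients. Their tests against Normal are not independent of it. In MEKi 1 against Vehicle 1 fell and 0 rose, beside 4.51% and 6.08% of all genes. Ccl9 had 15.5, 17.1, 17.4 and 19.5 CPM in MEKi 1, against 61.2, 39.6, 28.3 and 53.3 CPM in Vehicle. The groups did not overlap, and Ccl9 fell in MEKi 1, with a log2 fold change of -1.34 ± 0.27 (adjusted p = 0.0108), a call lost without MEKi 1 replicate 1 (adjusted p = 0.0556). Ccl6, a relative of Ccl9, lay the other way, with 211, 180, 197 and 159 CPM in MEKi 1 and 101, 136, 104 and 117 CPM in Vehicle, without passing the test (0.74 ± 0.28, adjusted p = 0.0792). In a fit of these groups alone it passed (0.75, adjusted p = 0.00698).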

How the data were processed

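RNA from distal colon was enriched for poly(A), fragmented with RNase III and sequenced on Ion Torrent, per the labels' protocols. The deposited values are read counts per gene symbol, 1 file per library, with mm10 as the build in the submitters' processing notes. Aligner, counter, annotation and strand setting were not given in the sources used here. Each sample's group came from its own labels and its counts from its own file. Totals were 3052940 to 10587555 counts, and a gene with no count over the Normal group was set against a floor of 3 counts, which covers counting error only.

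Counts were divided by the library total and scaled to CPM. Levels between genes were divided by the longest coding transcript in GENCODE M21. All 24 libraries were fitted together with edgeR 4.0.16 (R 4.3.3; TMM, filterByExpr, robust quasi-likelihood test) over 14773 genes, with Benjamini-Hochberg adjustment over all of them and a threshold of 0.05. All adjusted p-values are from edgeR unless DESeq2 (1.42.0) is named. The SE is the log2 fold change divided by the root of the F statistic. The script was tested on simulated data. Correlations used log2(CPM + 0.5), and likeness was ranked among genes with a mean of at least 5 CPM. The genes named are the 10 ligands, the 3 genes most like each, and the listed receptors and further ligands past the threshold. Ccl6 in MEKi 1, Ccr10 and the library remarks were chosen after their values were seen. One listed receptor is not reported here. The genes and lists were chosen with earlier results of these data known.

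Alternatives were other size factors, DESeq2, filters on low counts, the table's column names, libraries on which both labels agree, a replicate block, fits of only the groups compared and each library left out. The offset for transcript length and the block in a fit of only the groups compared were added after seeing the data. Replicate numbers were taken to pair MEKi 0.3 with Vehicle, where same-numbered libraries' deviations correlated at 0.123 to 0.189 over genes. No other groups were paired, since elsewhere the lowest correlation was under 0.1, though in Anti-TNF against Isotype only just, at 0.0991.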

Additional observations from a re-analysis of the deposited data

Results flagged for a closer look

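In 4 of 58 groups of 4 libraries examined for a library far from the other 3, 1 stood apart by Dixon's ratio, and chance alone gives about 1 in 20. Ccl4 was at 4.95 CPM in Isotype replicate 1, against 0.814 to 1.51 CPM in the other Isotype libraries. Ccl5 was at 65.2 CPM in MEKi 0.3 replicate 4, against 11.98 to 14.0 CPM in the other MEKi 0.3 libraries. Ccl7 was at 16.6 CPM in that same MEKi 0.3 library, against 4.40 to 5.31 CPM. Ccl7 was at 5.90 CPM in Normal replicate 2, against 0.617 to 1.51 CPM in the other Normal libraries.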

How the results depend on the processing

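Of 4282 gene values under alternative settings, 3996 kept their call, 212 lost it, 56 gained one and 18 passed the threshold on one side with the sign turned; a further 217 turned sign without passing either way. Of 210 counts of called ligands, 180 stayed within 1.5 times. Grouping by the table's column names gave 0 called ligands in Vehicle, Isotype, MEKi 0.3, MEKi 1 and Anti-TNF against Normal and in MEKi 1 against Vehicle. It also turned these log2 fold changes round: in MEKi 1 against Vehicle, Ccl2 to 0.86, Ccl4 to 1.87, Ccl11 to 0.37, Ccl28 to -0.029, Ccl9 to 0.51, Ccr1 to 0.55, Ccr2 to 0.99 and Ackr4 to -0.93; in Vehicle against Normal, Ccl9 to -0.029, Ccl12 to -0.72, Ccl22 to -0.78, Ccr2 to -0.26, Ccr4 to -0.54, Ccr10 to -2.61 and Ccrl2 to -0.18; in Isotype against Normal, Ccr10 to -0.45; in Anti-TNF against Normal, Ccl22 to -0.19 and Ccrl2 to -0.083. With only the libraries on which both labels agree, 3 ligands passed in Isotype, 0 in MEKi 1 and 0 in Anti-TNF against Normal, with at most 2 libraries a group. Without a filter on low counts 2 passed in MEKi 1 against Vehicle. DESeq2 called 1 in Anti-TNF against Isotype. Fits of only the groups compared called 3 in MEKi 0.3 and 2 in Anti-TNF against Normal. Where no construction shows it, the cause was not tested.

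With the replicate number as a block, 2 ligands passed in MEKi 1 against Normal, both over all groups and in the groups compared alone. A block in the groups compared alone gave 4 in MEKi 0.3 against Vehicle, 1 in Anti-TNF against Isotype (Ccl2, -1.80, adjusted p = 0.00967) and 3 in MEKi 0.3 against Normal. Only for MEKi 0.3 and Vehicle did every same-numbered correlation exceed 0.1, and the labels name no pairing. Anti-TNF and Isotype fell just short, at 0.227, 0.0991, 0.142 and 0.343, and 3 of 4 libraries there correlated best with their own number.

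With each library left out, the called ligands numbered 5 to 7 in Vehicle, 5 to 5 in Isotype, 4 to 5 in MEKi 0.3, 2 to 4 in MEKi 1 and 3 to 5 in Anti-TNF against Normal. They numbered 0 to 4 in MEKi 0.3 and 0 to 4 in MEKi 1 against Vehicle, 0 to 0 between doses, 0 to 0 in Anti-TNF against Isotype, 0 to 1 in Isotype against Vehicle and 0 to 0 for the difference of effects. Depth limits Ccl3 and Ccl4, with at most 47 and 85 counts in a group.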

Other observations

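Ccl24 (eotaxin-2), a further ligand of Ccr3, had 15.5, 5.22, 15.3 and 5.30 CPM in Anti-TNF, against 3.89, 2.29, 2.77 and 3.40 CPM in Isotype, and the groups did not overlap. Its log2 fold change was 1.76 (adjusted p = 0.16), which did not pass with edgeR, while DESeq2 placed it past the threshold (1.77, adjusted p = 0.0221). Isotype was itself low, with a mean of 3.09 CPM against 8.30 CPM in Vehicle, without overlap. Mast cell markers summed to 117 to 365 CPM in Anti-TNF and 66.8 to 148 CPM in Isotype, and their part was not tested. Against Normal, Ccl24 in Anti-TNF overlapped, with 2 of 4 libraries above, and its log2 fold change of 1.35 (adjusted p = 0.0307) passed in 4 of 8 fits that left out 1 library (adjusted p 0.00925 to 0.121). Ccl22 had 12.4, 21.8, 13.7 and 9.90 CPM in Vehicle, against 5.63, 2.29, 3.92 and 1.23 CPM in Normal, without overlap.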
